A study of Homo sapiens with 14 samples.

Results

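The metallothionein genes MT2A, MT1E, MT1X, MT1F, MT1G and MT1M were followed through long-term cultures of the colorectal cancer line SW620. They were chosen by gene symbol, with no measured value in the rule, and all 6 were found among the 36601 genes of the single-cell matrices and among the 60624 genes of the bulk tables. All 6 lie on chromosome 16 of GRCh38, in a stretch of 75613 bases from 56608584 to 56684196 (GENCODE annotation). MT2A is at 56608584 to 56609497, MT1E at 56625475 to 56627112, MT1M at 56632659 to 56633981, MT1F at 56657731 to 56660698, MT1G at 56666730 to 56668065 and MT1X at 56682470 to 56684196. MT1G is on the minus strand and the others are on the plus strand. In the annotation the canonical transcript of MT1E has 2 exons and that of each other member has 3.

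Metallothioneins are small cysteine-rich proteins that bind zinc and copper and, in excess, cadmium and other metals. Their genes are switched on by the zinc-sensing transcription factor MTF1, which binds metal response elements in their promoters, and also respond to glucocorticoids and to oxidative stress. In the colon they are made by the epithelium, and their level is often altered in colorectal tumours. The proteins and transcripts of the cluster are closely alike, so reads of one gene can be assigned to another, and the level of a low member such as MT1F, MT1G or MT1M beside an abundant one is uncertain for that reason.

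The promoters are shown because the metal response element is the sequence that the members share as targets of MTF1. Its core was searched as TGCACNC and TGCGCNC on both strands in the 250 bases before each RefSeq gene start (GRCh38.p14), and capitals mark every match, on either strand, with overlapping matches allowed. The table of promoters held 2 of the 6 members, MT2A (chr16:56608334-56608583, plus strand) and MT1X (chr16:56682220-56682469, plus strand). MT1E, MT1F, MT1G and MT1M are named only.
MT2A: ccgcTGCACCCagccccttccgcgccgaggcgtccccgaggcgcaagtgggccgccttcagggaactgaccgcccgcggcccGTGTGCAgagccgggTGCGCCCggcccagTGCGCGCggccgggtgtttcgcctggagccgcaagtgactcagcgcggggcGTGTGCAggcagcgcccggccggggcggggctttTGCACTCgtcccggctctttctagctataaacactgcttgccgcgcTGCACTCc
MT1X: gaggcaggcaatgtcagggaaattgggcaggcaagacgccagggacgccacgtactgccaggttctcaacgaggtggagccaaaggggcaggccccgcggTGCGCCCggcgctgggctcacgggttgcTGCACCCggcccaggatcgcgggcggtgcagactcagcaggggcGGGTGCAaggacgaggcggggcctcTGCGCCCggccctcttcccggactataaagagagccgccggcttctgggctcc
MT2A held 7 matches, 5 on the strand of the gene and 2 on the other. MT1X held 4 matches, 3 on the strand of the gene and 1 on the other. Both genes had a match in nearly the same place close to the start, from 54 to 48 bases before the start in MT2A and from 53 to 47 bases before it in MT1X. Of 35116 promoters of the same length, 24.8% held at least 1 match, 0.370% held at least 4 and 0.0313% held at least 7. Among other metallothionein genes with a promoter in this set, MT1H held 8 matches and MT1B and MT4 held 3 each. A match describes the letters only and is not a measured binding site.

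The study asked how the location and activity of the DNA demethylase TET2 change while colonies of SW620 grow for 15 days without passage. Single-cell libraries were made from dissociated cultures of SW620-FLAG, which the sample labels call SW620, and of SW620-TET2CD, which overexpresses the catalytic domain of TET2, on days 6, 9, 12 and 15, with 1 library for each line and day. Bulk libraries were made on day 15 from the cells inside and outside the colonies of SW620 and SW620-TET2CD, separated on a cell strainer. Others were made on day 6 from whole cultures of SW620 and SW480. The sources used here do not say whether the SW620 bulk cultures carried FLAG. Those of day 15 are called SW620-FLAG below, as the control beside SW620-TET2CD. SW620 came from a lymph node metastasis and SW480 from the primary colon tumour of the same patient, and no agent was added to any of these cultures. No line and day has a second library of the same assay and fraction, so p-values rest on the spread between libraries that differ in line or day, and the inside and outside cells of a line may share a culture.

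Single-cell levels are given as CPM, the UMIs of a gene scaled to 1000000 UMIs over all kept cells of a library. The 8 libraries held 3894 to 8154 kept cells with 48186195 to 74185723 UMIs, and 3 UMIs correspond to 0.0404 to 0.0623 CPM. Any pair of libraries shared at most 31 cell barcodes (0.44% of the smaller one at most). The bulk libraries held 16470176 to 25840563 expected counts. As for the epithelial label, 6 of 8 colorectal epithelium markers were above 10 CPM in every library EPCAM, KRT8 and KRT18 among them, and the list summed to 9413 to 14040 CPM, while CDX1 was below 1 CPM throughout. The fibroblast list summed to 8.11 to 28.5 CPM, the leukocyte list to 7.23 to 57.4 CPM and the endothelium list to 0.379 to 1.39 CPM, with MS4A1 at 0 in all 8 libraries. TET2 was at 2.11 to 3.90 CPM in the 4 SW620-FLAG libraries and at 40.2 to 107 CPM in the 4 SW620-TET2CD libraries, and its log2 fold change between the lines was 4.27 ± 0.31 (SE, adjusted p = 1.15e-05).

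During the culture MT1E, MT1G and MT1M fell several fold, MT1X fell less, MT1F rose with a call that most alternatives ended, and MT2A, the most abundant member, was lowest on day 12 and up again on day 15. The comparison of late days (12 and 15) with early days (6 and 9) asked which genes followed the age of the colonies, with line as a block. Of the 6 members 4 fell and 1 rose, MT1M among the 4 having passed the filter on low counts through the early libraries, where 28.3% of the 16993 genes tested fell and 29.4% rose. The median log2 fold change of the members, MT1M included, was -1.38, beside 0.04 over all genes tested. A test of any difference among the 4 days called all 6 members, where 65.6% of 17478 genes were called.

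MT2A, the widely expressed member that carried most of the metallothionein UMIs, measured 427, 368, 270 and 507 CPM in the SW620-FLAG libraries of days 6, 9, 12 and 15. The SW620-TET2CD libraries of the same days measured 442, 317, 272 and 370 CPM. Day 12 was the lowest in both lines, and the early and late libraries overlapped, with 388 ± 57.5 CPM early and 355 ± 112 CPM late (SD, n = 4 each). Late over early days had a log2 fold change of -0.24 ± 0.22 (SE, adjusted p = 0.379), and the 4 days differed (adjusted p = 0.0143). Without SW620-FLAG of day 15, its highest library, MT2A was called lower late (-0.54, adjusted p = 0.0229). The difference among days was no longer called without SW620-TET2CD of day 6 (adjusted p = 0.0732), without SW620-FLAG of day 12 (adjusted p = 0.131) or without line as a block (adjusted p = 0.0516). For MT1F it was lost with every barcode (adjusted p = 0.0823) and without SW620-FLAG of day 15 (adjusted p = 0.0963).

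MT1E, a member made in many tissues, went through 43.4, 29.2, 10.2 and 10.5 CPM in SW620-FLAG over the 4 days in order. In SW620-TET2CD the levels were 58.4, 34.0, 16.2 and 11.0 CPM. Every late library was below every early library, at 12.0 ± 2.83 CPM against 41.3 ± 12.8 CPM (SD, n = 4 each). MT1E thus fell 3.72 fold, with a log2 fold change of -1.90 ± 0.22 (SE, adjusted p = 6.84e-05).

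MT1G, an isoform gene that is known to be silenced in several tumour types, went through 14.1, 7.28, 2.36 and 1.31 CPM in SW620-FLAG, while SW620-TET2CD had 15.0, 8.60, 5.02 and 2.20 CPM. It was lower on each sampled day than on the one before in both lines, and day 6 was 10.8 times day 15 in SW620-FLAG and 6.85 times in SW620-TET2CD. From early to late days MT1G had a log2 fold change of -2.23 ± 0.35 (SE, adjusted p = 4.0e-04). MT1M was the rarest member, with 0.474, 0.515, 0.118 and 0.0757 CPM in SW620-FLAG, beside 1.13, 0.786, 0.291 and 0.176 CPM for the SW620-TET2CD libraries. The lowest of these values stands for 4 UMIs (exact 95% Poisson interval 0.0206 to 0.194 CPM, counting error only). Late libraries of MT1M were all below the early ones, with a log2 fold change of -2.28 ± 0.31 (SE, adjusted p = 1.58e-04). It had 28 to 84 UMIs in the early and 4 to 14 in the late libraries, so it passed the filter through the group where it was high. With no filter the log2 fold change was -2.32, from the same few counts, so this does not answer that selection.

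MT1X, the second most abundant member, measured 80.2, 49.2, 27.2 and 45.3 CPM in the SW620-FLAG libraries. The SW620-TET2CD libraries measured 85.5, 55.2, 40.0 and 47.9 CPM. Its lowest level was on day 12 in both lines, as for MT2A, but day 15 stayed below the day 6 of each line by 1.77 and 1.79 fold. Late over early days gave a log2 fold change of -0.86 ± 0.23 (SE, adjusted p = 0.00772). MT1F went the other way, with 2.89, 2.57, 3.45 and 6.17 CPM in SW620-FLAG, beside 4.12, 3.51, 4.92 and 6.12 CPM for the other line. Its late and early libraries overlapped, since SW620-FLAG of day 12 was below SW620-TET2CD of days 6 and 9. MT1F rose by a log2 fold change of 0.57 ± 0.22 (SE, adjusted p = 0.0461), and this call was lost in 8 of 14 alternatives, with the log2 fold change from 0.29 to 0.73 and the adjusted p from 0.0110 to 0.148. The libraries whose absence ended the call were both of day 9 (0.48 without SW620-FLAG and 0.54 without SW620-TET2CD), both of day 15 (0.29 and 0.57) and SW620-FLAG of day 6 (0.54).

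**Figure D1:**
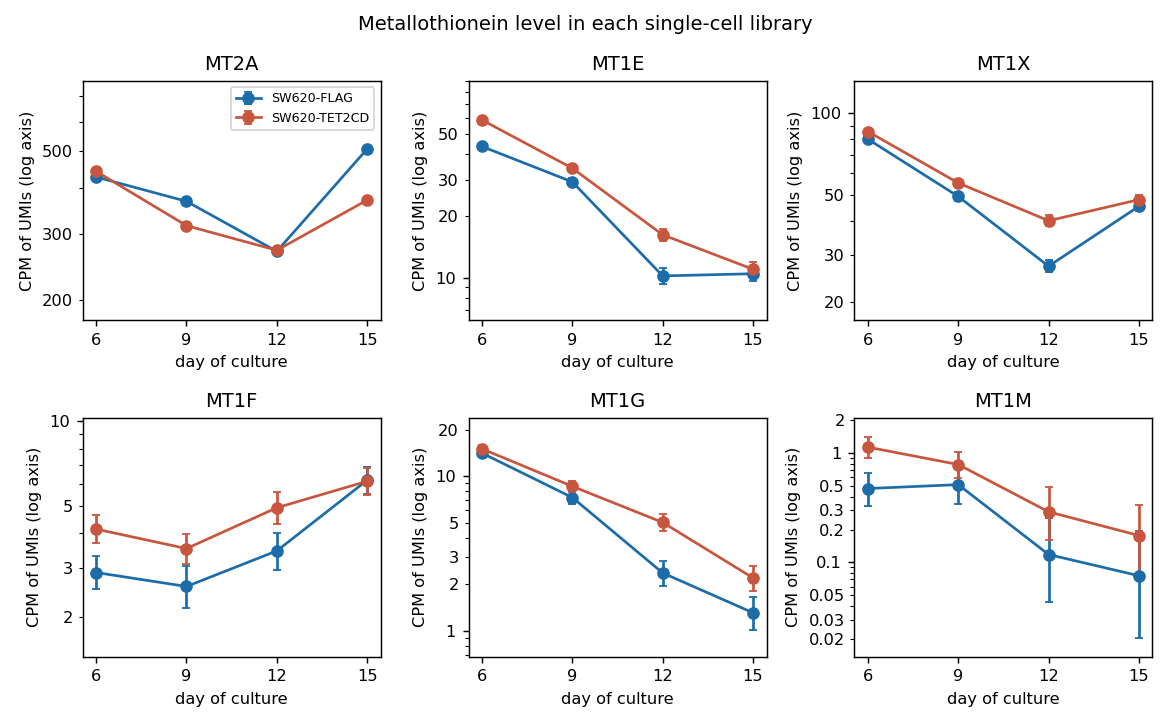
CPM of UMIs (log axis, with a range of its own in each panel) of each metallothionein gene against the day of culture, 1 point for each single-cell library, with SW620-FLAG in blue and SW620-TET2CD in red. Bars are exact 95% Poisson intervals for counting error only. MT1E, MT1G and MT1M go down in both lines, from 43.4 to 10.5 CPM for MT1E in SW620-FLAG, while MT2A and MT1X are lowest on day 12 and MT1F is highest on day 15.

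The make-up of the metallothionein UMIs shifted towards MT2A. MT2A held 75.2%, 80.5%, 86.2% and 88.9% of the UMIs of the 6 genes on days 6, 9, 12 and 15 in SW620-FLAG and 72.9%, 75.6%, 80.4% and 84.6% in SW620-TET2CD. The exact 95% binomial intervals, for counting error only, for SW620-FLAG were 74.7% to 75.6% (day 6) and 88.5% to 89.3% (day 15). MT1E went from 7.64% to 1.84% in SW620-FLAG and from 9.63% to 2.52% in SW620-TET2CD between day 6 and day 15, and MT1G from 2.49% to 0.229% and from 2.48% to 0.501%. The share of MT2A was larger in SW620-FLAG than in SW620-TET2CD on each of the 4 days, without a test. The summed level of the 6 genes was 568, 456, 314 and 570 CPM in SW620-FLAG and 606, 419, 339 and 438 CPM in SW620-TET2CD.

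**Figure D2:**
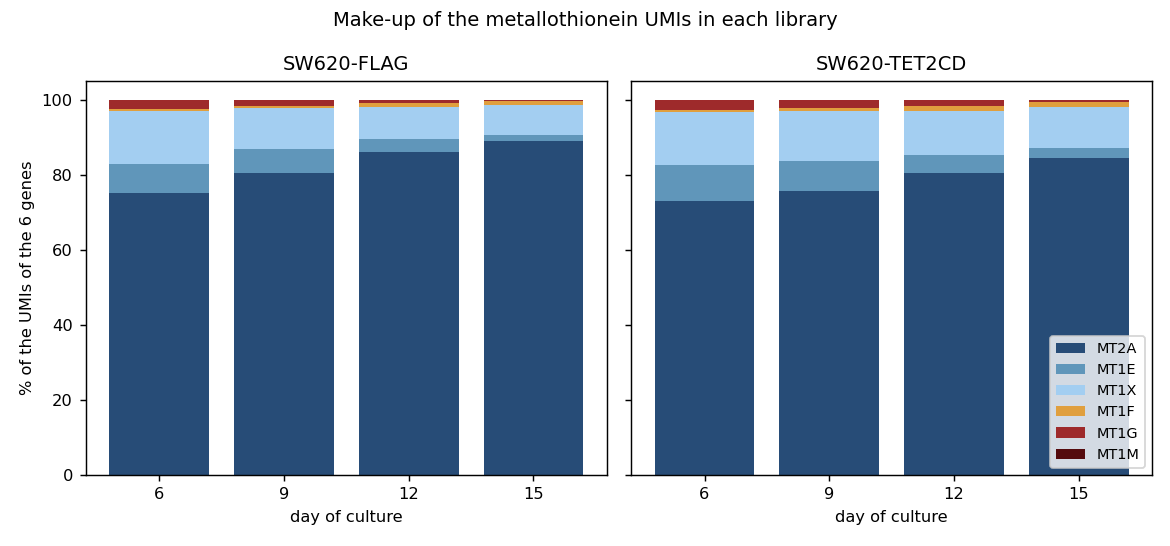
Share in percent of the UMIs of the 6 genes held by each gene, with 1 stacked bar for each single-cell library by day of culture, SW620-FLAG on the left and SW620-TET2CD on the right. MT2A takes 75.2% on day 6 and 88.9% on day 15 in SW620-FLAG, while the shares of MT1E, MT1X and MT1G shrink.

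In the single-cell libraries the line carrying the TET2 catalytic domain did not differ from SW620-FLAG in any member at the threshold. With day as a block, 0 of the 6 members were called, where 4.32% of 17478 genes were called. At an unadjusted p under 0.05 were MT1G, with a log2 fold change of TET2CD over FLAG of 0.39 ± 0.15 (SE, adjusted p = 0.242), and MT1M, with 0.95 ± 0.26 (SE, adjusted p = 0.0660). MT1M was higher in SW620-TET2CD on all 4 days, and without upper limits on genes and UMIs per cell its difference was called (1.37, adjusted p = 0.00807). Without either library of day 15, MT1E was called instead, at 0.39 without SW620-FLAG (adjusted p = 0.0416) and at 0.39 without SW620-TET2CD (adjusted p = 0.0460). MT2A had a log2 fold change of -0.26 ± 0.14 (SE, adjusted p = 0.450). Whether the change from early to late days differed between the lines was tested as an interaction. It called 0% of 17478 genes in edgeR and 0 in DESeq2, with 141 genes at an unadjusted p under 0.05 in edgeR, and the values of the members lay between -0.43 ± 0.45 for MT1F and 0.75 ± 0.67 for MT1G (log2, SE).

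Of 14 other metallothionein genes listed, 6 were in the single-cell matrices and 2 passed the filter on low counts. MT1A fell and MT3 rose, where 28.3% and 29.4% of all genes did. MT1A had 14.4, 10.8, 8.18 and 9.89 CPM in SW620-FLAG, beside 15.8, 8.88, 5.11 and 8.29 CPM for SW620-TET2CD, with a log2 fold change of late over early days of -0.80 ± 0.23 (SE, adjusted p = 0.0130). MT3, known as the growth inhibitory metallothionein of the brain, had 0.420, 0.588, 3.64 and 1.65 CPM in SW620-FLAG, beside 0.377, 0.579, 5.67 and 4.31 CPM for SW620-TET2CD. Every late library of MT3 was above every early one, with day 12 the highest in both lines, and the log2 fold change was 2.78 ± 0.31 (SE, adjusted p = 6.0e-05). MT1B and MT1HL1 were at 0 in all 8 libraries, which by the limit of 3 UMIs allows up to 0.0404 to 0.0623 CPM, and MT1H and MT4 had at most 15 UMIs and 1 UMI in a library.

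The genes that sense and carry zinc rose and fell in shares near those of all genes. MTF1, the zinc sensor that drives metallothionein transcription, was at 8.88 to 11.9 CPM over the 8 libraries, with a log2 fold change of late over early days of -0.20 ± 0.13 (SE, adjusted p = 0.197). SLC30A1, the zinc exporter of the plasma membrane and itself a target of MTF1, was at 9.35 to 13.9 CPM, with a log2 fold change of -0.05 ± 0.16 (SE, adjusted p = 0.809). Of the 25 listed zinc genes 21 were tested, 6 rose and 5 fell, where 29.4% and 28.3% of all genes tested did, with a median log2 fold change of -0.09. SLC39A11 rose (1.53 ± 0.20), and SLC39A3 (-0.95 ± 0.14), the zinc importer SLC39A8 (-1.33 ± 0.22) and SLC39A1 (-0.75 ± 0.13) fell (log2, SE).

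The counts of the next lists stand beside the same 29.4% of all genes that rose and 28.3% that fell. Among the copper genes 2 of 10 rose and 4 fell, with a median log2 fold change of -0.29. SCO1 (-0.75 ± 0.10) and SCO2 (-0.64 ± 0.13), which deliver copper to cytochrome c oxidase, and the copper-zinc superoxide dismutase SOD1 (-0.89 ± 0.16) fell, and the copper pump ATP7A rose (0.63 ± 0.13). In the glucocorticoid list 6 of 9 tested genes rose and 3 fell, with a median of 0.87. ERRFI1 (2.86 ± 0.18), TSC22D3 (1.07 ± 0.16) and PER1 (0.74 ± 0.15) rose, while FKBP5, a gene that glucocorticoids induce strongly, fell (-0.97 ± 0.13). In the oxidative stress list 2 of 10 rose and 6 fell, with a median of -0.70. The cystine carrier SLC7A11 rose (2.44 ± 0.37), and KEAP1 (-1.01 ± 0.11) and TXNRD1 (-0.57 ± 0.11) fell. Between the lines, 1 gene of the zinc list, SLC30A10 (1.73 ± 0.36, adjusted p = 0.0186), was higher in SW620-TET2CD. So were 2 of the glucocorticoid list, SGK1 (1.31 ± 0.21, adjusted p = 0.00370) and KLF9 (1.18 ± 0.23, adjusted p = 0.0128). Of the copper and oxidative stress lists 0 genes were called, where 4.32% of all genes were. Of the 12 hypoxia genes BNIP3 was higher in SW620-TET2CD (0.96 ± 0.19, adjusted p = 0.0132), and VEGFA (-0.44 ± 0.10, adjusted p = 0.0230), ANKRD37 (-0.46 ± 0.11, adjusted p = 0.0424) and CA9 (-0.65 ± 0.16, adjusted p = 0.0495) were lower.

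At equal depth, fewer cells held a metallothionein UMI on day 12 than on the other days, and the UMIs were spread less evenly over the cells on both late days, as a description of 1 library for each line and day. Each cell was thinned to 2000 UMIs, since the median depth ran from 6640 to 13479 UMIs per cell, and 18 to 89 cells per library that were shallower were left out. Cells with at least 1 UMI of the 6 genes made up 61.2%, 52.9%, 36.4% and 52.0% of thinned SW620-FLAG cells over the 4 sampled days. In SW620-TET2CD they made up 63.6%, 49.6%, 37.8% and 43.1%, and early and late shares overlapped between the lines. Before thinning the shares were 97.4%, 85.3%, 76.7% and 78.5% in SW620-FLAG and 94.1%, 90.6%, 79.2% and 72.8% in SW620-TET2CD, where day 15 and not day 12 was then the lowest. These libraries hold 1 epithelial line each and no cell type that should lack metallothioneins, so the part of free RNA in these shares was not tested.

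The tenth of the cells with most metallothionein UMIs held 34.7% and 38.0% of them on days 6 and 9 in SW620-FLAG and 34.0% and 39.3% in SW620-TET2CD. On days 12 and 15 it held 54.4% and 46.9% in SW620-FLAG and 53.6% and 54.7% in SW620-TET2CD, so each late library was above each early one. Counting alone also raises this share when the mean falls. Member UMIs per thinned cell averaged 1.12 and 1.20 on day 6, 0.670 and 0.697 on day 12 and 1.25 and 1.00 on day 15 (SW620-FLAG first). The part of the mean in these shares was not tested. The variance of MT2A UMIs per thinned cell was 1.43 to 1.47 times the mean in the 4 early libraries and 2.38 to 3.01 times in the 4 late ones. A ratio of 1 is what counting alone gives. The highest number of metallothionein UMIs in a thinned cell was 11 to 19 on early days, and 17, 23, 33 and 31 in the late libraries.

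**Figure D3:**
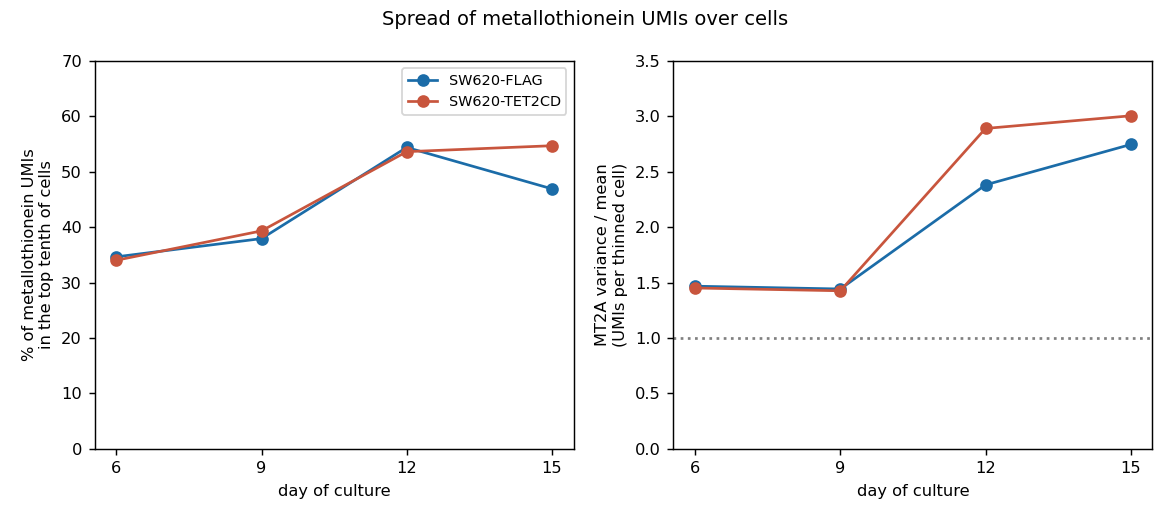
Left, percent of the UMIs of the 6 genes held by the tenth of cells with most of them, and right, variance over mean of MT2A UMIs per cell, both against the day of culture in cells thinned to 2000 UMIs, with 1 point for each library. The dotted line at 1 is the ratio that counting alone gives. Both measures are higher on days 12 and 15 than on days 6 and 9 in both lines, with MT2A ratios of 2.38 to 3.01 against 1.43 to 1.47.

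The UMIs of MT2A and MT1X went together across cells more closely in each late library than in any early one. Pearson's r of the MT2A and MT1X UMIs across the thinned cells of a library was 0.05 and 0.06 on day 6 and 0.06 and 0.07 on day 9 (SW620-FLAG first). It was 0.22 and 0.11 on day 12 and 0.30 and 0.44 on day 15, over 3876 to 8123 cells of 1 library and equal depth each, as a description. Cells with an MT1X UMI held 0.961 MT2A UMIs on day 6 in SW620-FLAG and cells without one held 0.822, a ratio of 1.17. On day 15 they held 2.71 and 0.960, a ratio of 2.82. In SW620-TET2CD the ratio was 1.20 on day 6 and 3.99 on day 15, when cells with an MT1X UMI held 2.71 MT2A UMIs and cells without one held 0.678.

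To see in which cells the genes were high, the cells of each library were ranked by their UMIs of 12 hypoxia genes, which include CA9, VEGFA and NDRG1 and are targets of the oxygen-sensing HIF factors. Of the 12 genes 10 rose from early to late days and 0 fell, where 29.4% and 28.3% of all genes did, and the 4 with the smallest adjusted p were VEGFA (3.24 ± 0.19), P4HA1 (2.29 ± 0.17), SLC2A1 (1.74 ± 0.14) and CA9 (3.03 ± 0.27) on the log2 scale. The third of cells with most hypoxia-list UMIs was compared with the third with fewest, over the 8 libraries with library as a block. Counted in UMIs, rank differences were narrower on early days, with 4.38 to 5.63 list UMIs per thinned cell in the upper and 0.574 to 1.01 in the lower part. On late days these were 8.56 to 11.1 and 1.23 to 2.40. On the log2 scale the 11 list genes tested had a median late minus early difference of -0.04, with 1 called larger and 1 smaller late. The cells were ranked by these same genes in the same UMIs, so this value is partly set by the ranking. It does not show that the cells were separated equally well early and late. Many cells were tied in list UMIs at the edges of the parts, and ties were broken at random. The ties were heavier on early days, with 1071 to 1974 tied cells at an edge for parts of 1843 to 2707 cells. On late days 288 to 950 cells were tied for parts of 1292 to 2274 cells. How far the ties narrowed the early differences was not tested.

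MT2A was higher in the hypoxia-high cells of all 8 libraries. On early days it was at 448 against 377 CPM on day 6 and 374 against 352 CPM on day 9 for SW620-FLAG. In SW620-TET2CD the early values were 458 against 407 CPM and 320.0 against 275 CPM. On late days SW620-FLAG had 435 against 185 CPM (day 12) and 708 against 429 CPM (day 15), and SW620-TET2CD had 396 against 204 CPM and 613 against 255 CPM. The ratio of upper to lower cells was thus 1.06 to 1.19 in the early libraries and 1.65 to 2.41 in the late ones. Over all 8 libraries the log2 fold change was 0.63 ± 0.13 (SE, adjusted p = 0.0139), and 1 of the 5 members tested was called higher, where 2.98% of 12790 genes were. The call was lost without SW620-FLAG of day 12 (0.56, adjusted p = 0.0531), without SW620-TET2CD of day 12 (0.59, adjusted p = 0.0512) and without SW620-FLAG of day 15 (0.61, adjusted p = 0.0542).

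MT1X and MT1F had higher levels in the hypoxia-high cells of all 4 late libraries. MT1X had 37.3 against 19.2 CPM (day 12) and 98.7 against 28.6 CPM (day 15) for SW620-FLAG, and 42.6 against 36.0 CPM and 112 against 28.0 CPM for SW620-TET2CD. The ratio was 3.45 and 4.01 on day 15 and 0.983 to 1.10 in the 4 early libraries. MT1F had 6.14 against 2.30 CPM (day 12) and 12.3 against 3.96 CPM (day 15) for SW620-FLAG, and 7.74 against 2.32 CPM and 11.8 against 2.83 CPM for SW620-TET2CD. Its ratio was 2.67 to 4.18 in the late libraries and 0.750 to 2.00 in the early ones. Only 0.434% to 1.47% of the thinned cells of a library held an MT1F UMI, so these levels and ratios rest on few UMIs. Over all 8 libraries neither was called, with log2 fold changes of 0.66 ± 0.21 for MT1X (SE, adjusted p = 0.0993) and 1.00 ± 0.27 for MT1F (SE, adjusted p = 0.0505). MT1F passed the threshold without SW620-FLAG of day 6 (1.05, adjusted p = 0.0430), without SW620-TET2CD of day 6 (1.22, adjusted p = 0.0158) or without SW620-TET2CD of day 9 (1.17, adjusted p = 0.0242).

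The change of this difference from early to late days was tested directly, in a fit chosen after the values were seen. It called 3 of the 5 members tested, all larger late, where 10.1% of 12790 genes were called larger late. The log2 difference was 0.84 ± 0.09 for MT2A (SE, adjusted p = 1.34e-07), 1.34 ± 0.20 for MT1X (SE, adjusted p = 1.16e-05) and 1.66 ± 0.37 for MT1F (SE, adjusted p = 0.00138). The same 3 were called with each of the 8 libraries left out. MT1E, at 0.05 ± 0.22 (SE, adjusted p = 0.908), and MT1G, at -0.45 ± 0.38 (SE, adjusted p = 0.444), were not called, and MT1M did not pass the filter. On day 15 MT1E was at 13.0 against 7.92 CPM in SW620-FLAG and 12.6 against 11.0 CPM in SW620-TET2CD, and MT1G at 1.10 against 1.54 CPM and 2.06 against 2.83 CPM.

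SLC30A1, the zinc exporter, also had a larger difference on late days, although over all 8 libraries it was not called (0.63 ± 0.22, SE, adjusted p = 0.127). It was at 22.4 CPM in the upper and 8.58 CPM in the lower cells of SW620-FLAG on day 15 and at 23.6 and 8.22 CPM in SW620-TET2CD, from 102 and 39 UMIs and from 92 and 32 UMIs. The day 6 levels were 13.8 and 12.5 CPM for SW620-FLAG, beside 10.5 and 11.1 CPM for SW620-TET2CD. On day 12 they were 16.1 and 3.46 CPM for SW620-FLAG, from 42 and 9 UMIs, and 10.8 and 8.51 CPM for SW620-TET2CD. The difference was larger late by 1.40 ± 0.25 on the log2 scale (SE, adjusted p = 1.11e-04), while the value for MTF1 was 0.20 ± 0.23 (SE, adjusted p = 0.587). MT3 had few UMIs, and its values are given with no test, since it was near 0 in the lower cells of most libraries. It had more UMIs in the upper than in the lower cells in the 6 libraries of days 9 to 15, from 6 against 3 up to 46 against 1 (both SW620-TET2CD), and fewer in both of day 6, with 2 against 3 and 1 against 3.

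**Figure D4:**
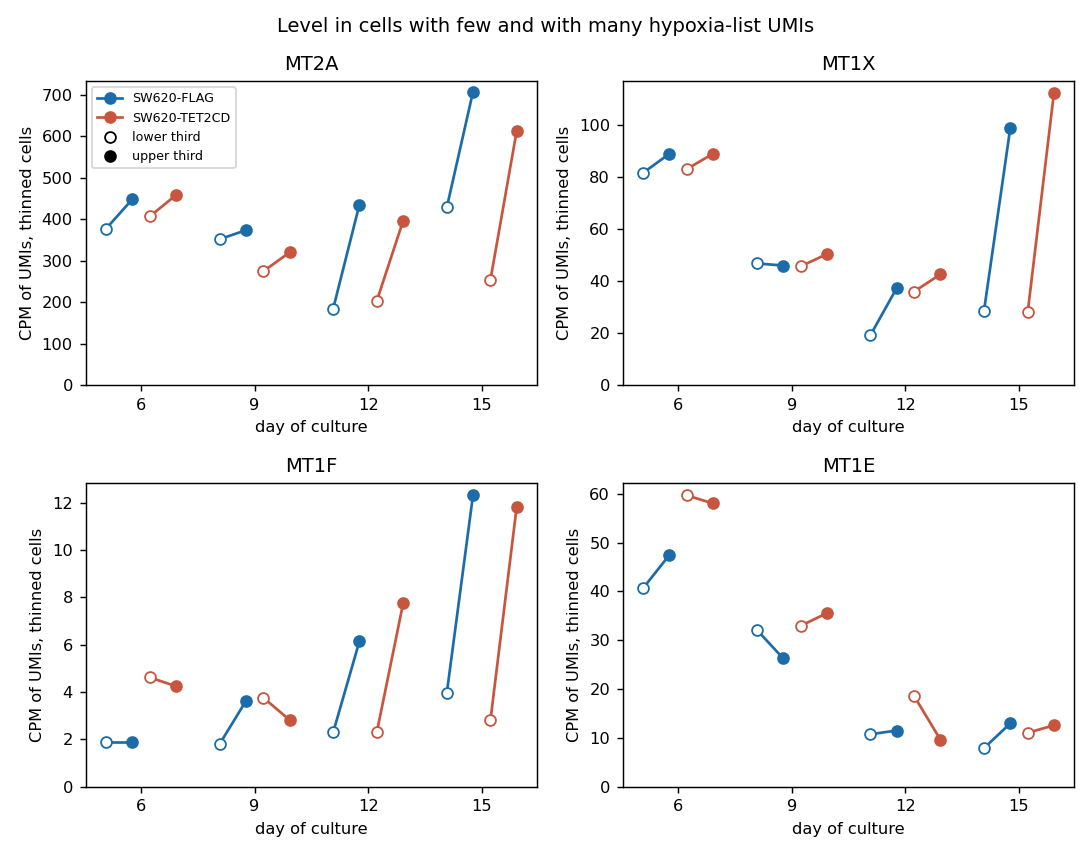
CPM of UMIs of MT2A, MT1X, MT1F and MT1E in the third of cells with fewest (open circles) and with most (filled circles) hypoxia-list UMIs, joined for each library, by day of culture, with SW620-FLAG in blue and SW620-TET2CD in red and axes from 0. The gap is widest on days 12 and 15 for MT2A and MT1F and on day 15 for MT1X, as in 28.6 and 98.7 CPM for MT1X in SW620-FLAG on day 15, while MT1E has no gap of one direction.

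Ranking the cells by 14 cell cycle genes, which include MKI67 and TOP2A, gave a ratio of upper to lower MT2A of 1.09 to 1.41 over the 8 libraries. These ratios were below the hypoxia-list ratios in all 4 late libraries. On early days the 2 ratios were 1.205 against 1.188 and 1.233 against 1.062 in SW620-FLAG (days 6 and 9, cycle list first). In SW620-TET2CD they were nearly equal, at 1.136 against 1.127 and 1.171 against 1.165. All 14 genes fell from early to late days, and on days 12 and 15 the third of cells with fewest had 0 list UMIs in every library. In 3 of these 4 libraries the upper part also held cells with 0 list UMIs, since 3001 of 3908 cells (SW620-FLAG, day 12), 5177 of 6824 (SW620-FLAG, day 15) and 4350 of 5840 (SW620-TET2CD, day 15) had none. MT2A was higher in the upper cells of all 8 libraries, for example at 437 against 362 CPM on day 6 and 623 against 497 CPM on day 15 in SW620-FLAG. Its log2 fold change was 0.25 ± 0.04 (SE, adjusted p = 1.53e-04), and it was the only one of the 5 members tested that was called, where 24.9% of 12771 genes were called. MT1F had -0.38 ± 0.18 (SE, adjusted p = 0.129), and the other members lay between 0.01 ± 0.08 for MT1X and 0.18 ± 0.21 for MT1G.

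By level over the 8 single-cell libraries, the 5 genes most like the summed members were DSTN (Pearson's r 0.97), SCNM1 (0.96), GORASP2 (0.96), NMT1 (0.96) and EIF1AD (0.95), among 8713 genes with a mean of at least 8 CPM. Spearman's rho of the 5 was 0.86 to 0.95. They ranged from 381 to 455 CPM for DSTN to 11.8 to 19.7 CPM for EIF1AD, and with 8 libraries and so many genes values this high describe these libraries only. Since the sum is mostly MT2A, the other members need not share its pattern, and r with MT2A was 0.64 for MT1X, 0.27 for MT1E and 0.20 or less for MT1F, MT1G and MT1M. With MT1E, r was 0.96 for MT1G, 0.94 for MT1M, 0.85 for MT1X and -0.59 for MT1F.

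The bulk libraries gave levels per length, in TPM, and placed SW480 far above SW620. On day 6 MT2A was at 2379 TPM in SW480 and 340 TPM in SW620, 7.01 times as high. MT1E was at 268 and 10.9 TPM, 24.7 times as high, MT1F at 23.7 and 1.31 TPM and MT1X at 203 and 84.9 TPM. MT1G alone was lower in SW480, at 0.60 against 5.25 TPM, from 1 and 17 counts. In bulk samples fewer cells of a type and less RNA per cell cannot be told apart. With 1 library each there is no test. Of the 5 members above the filter on low counts, MT2A, MT1E and MT1F passed a log2 ratio of 1 (CPM + 1) towards SW480 and 0 passed it towards SW620, where 14.2% and 9.43% of 17857 genes did. MT1F (101 and 4 counts) passed the filter through SW480 alone and MT1G (1 and 17 counts) through SW620 alone, the library where each was high. On TPM + 1 MT1X (1.25) passed towards SW480 and MT1G (-1.97) towards SW620 as well, where 13.5% and 9.16% of the same genes did.

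On day 15 the SW620-FLAG cells had 72.7 TPM of MT2A inside and 82.3 TPM outside the colonies, and the SW620-TET2CD cells had 189 and 239 TPM. Both SW620-TET2CD libraries were above both SW620-FLAG libraries. With location as a block the log2 fold change was 1.38 ± 0.13 (SE, adjusted p = 0.0457), and 1 of the 4 members tested was called, where 0.412% of 17722 genes were. The fit leaves 1 residual degree of freedom, and without location as a block the call was lost (adjusted p = 0.0659). In the single-cell libraries of day 15 MT2A was at 507 CPM in SW620-FLAG and 370 CPM in SW620-TET2CD, the opposite order. The SW620 day 6 value of 340 TPM also stood above all 4 bulk values of day 15, though the sources used here do not say whether that culture carried FLAG, so line and day may differ together, while the single-cell MT2A of SW620-FLAG was 427 CPM on day 6 and 507 CPM on day 15.

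MT1E had 2.01 TPM inside and 2.20 TPM outside for SW620-FLAG, beside 3.61 and 14.7 TPM for SW620-TET2CD, so the outside library of SW620-TET2CD stood apart. Between the lines MT1E had a log2 fold change of 1.82 ± 0.53 (SE, adjusted p = 0.173), and in the inside libraries alone the log2 ratio was 0.45. TET2 was also uneven there, with 6241 expected counts inside and 24200 outside in SW620-TET2CD. MT1X had 35.8 and 40.2 TPM for SW620-FLAG, beside 68.3 and 68.5 TPM for SW620-TET2CD, with a log2 fold change of 0.72 ± 0.22 (SE, adjusted p = 0.184). MT1G was between 2.93 and 4.83 TPM in the 4 libraries. MT1F, with 0 to 10 counts, and MT1M, with 0 to 2 counts, did not pass the filter on low counts.

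Outside and inside cells did not differ in any member at the threshold. The comparison called 0% of 17722 genes in edgeR, with 1068 genes at an unadjusted p under 0.05, and 21 in DESeq2, with none of the members among them. The log2 fold change of outside over inside was 0.21 ± 0.12 for MT2A (SE, adjusted p = 0.793), 1.17 ± 0.53 for MT1E (SE, adjusted p = 0.772), 0.08 ± 0.22 for MT1X (SE, adjusted p = 0.953) and -0.20 ± 0.45 for MT1G (SE, adjusted p = 0.940). The value for MT1E came from SW620-TET2CD, with a log2 ratio of 1.46 there and 0.09 in SW620-FLAG. In both bulk comparisons 0 of 12 hypoxia genes were called, with medians of -0.40 outside over inside and 0.70 for SW620-TET2CD over SW620-FLAG. Of the 14 cell cycle genes 0 were called in either, with medians of 0.88 and -0.99 in the same order. SGK1 (2.81 ± 0.28, adjusted p = 0.0488) and KLF9 (4.82 ± 0.34, adjusted p = 0.0344) were higher in SW620-TET2CD.

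**Figure D5:**
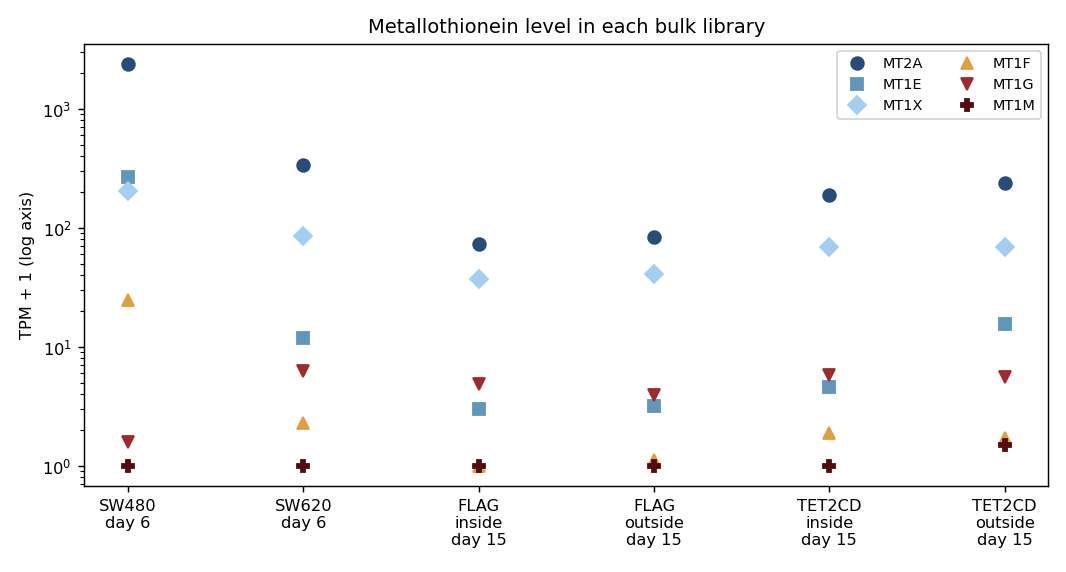
TPM + 1 (log axis) of the 6 metallothionein genes in each of the 6 bulk libraries, with 1 symbol for each gene and no error bars because each condition has 1 library. SW480 is highest for MT2A (2379 TPM), MT1E, MT1X and MT1F, and both SW620-TET2CD libraries lie above both SW620-FLAG libraries for MT2A.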

How the data were processed

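The 8 single-cell matrices, as deposited, hold UMI counts per gene and cell barcode, which the authors made with Cell Ranger 4.0 against GRCh38 (submitters' notes). The 6 bulk tables give, for each gene, the TPM and the expected count that the authors made with Bowtie and RSEM. The notes give a mouse build for the bulk tables, whose gene identifiers are human, so their build is uncertain and no coordinate was taken from them. Positions came from GENCODE 44 by Ensembl identifier and promoters from RefSeq.

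The study's limits on cells were applied, which are 200 to 4500 genes, 1000 to 20000 UMIs and a mitochondrial share of 10% or less, and doublets were not called. The filter kept 48282 of 67056 barcodes, more than the number of cells that the paper reports after quality control, so the sets of cells differ. UMIs were summed per library. Expected counts were rounded, and 45 genes listed a second time for the Y chromosome were left out. The tests were edgeR 4.0.16 (filterByExpr, TMM, quasi-likelihood, two-sided) under R 4.3.3. P-values were adjusted over all genes tested (Benjamini-Hochberg) with a threshold of 0.05, with DESeq2 1.42.0 as an alternative. Early days were 6 and 9 and late days 12 and 15. For ranks by list, each cell was thinned to 2000 UMIs and the sums over the third of cells with most and over the third with fewest list UMIs entered with library as a block. Bulk log2 ratios used CPM + 1. The fits were tested on simulated counts, while the thinning, ranking and summing, done in Python 3.11.15, were not.

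The metallothionein genes and the gene lists were chosen with earlier results of these data known. Named genes were the members, MTF1, SLC30A1, TET2, up to 4 called genes per list and comparison by smallest adjusted p, and the 5 genes most like the summed members. The values of 1 gene that this rule names are not reported here. Intervals cover counting error only, since cells of 1 library are not replicates.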

Additional observations from a re-analysis of the deposited data

Results flagged for a closer look

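The difference between cells with many and with few hypoxia-list UMIs was larger on late than on early days for MT2A, by 0.84 on the log2 scale (adjusted p = 1.34e-07, edgeR), for MT1X, by 1.34 (adjusted p = 1.16e-05), and for MT1F, by 1.66 (adjusted p = 0.00138). The upper cells were higher in 4 of 4 late libraries for each of the 3 genes. Counted in UMIs, the separation by the hypoxia list was also wider late. The upper cells held 8.56 to 11.1 list UMIs late against 4.38 to 5.63 early, and the lower cells also held more late. On the log2 scale the 11 list genes tested had a median late minus early difference of -0.04, with 1 called larger and 1 smaller. That value is partly set by the ranking, which used the same genes and UMIs, and does not show an equal separation. More cells were tied at the edges of the parts early, 1071 to 1974 against 288 to 950 late, and ties were broken at random. The parts of the separation and of the ties in the result were not tested. In the bulk libraries of day 15, MT1X was higher outside than inside the colonies of SW620-FLAG (log2 ratio of CPM + 1, 0.30) and lower in SW620-TET2CD (-0.09), a difference of -0.38 that rests on 1 library each and was not tested. In TPM the SW620-TET2CD libraries had 68.3 inside and 68.5 outside, so the sign of the smaller ratio turns with the unit.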

How the results depend on the processing

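Of 583 values of single members recomputed under the alternatives, 544 kept their direction or size and their side of the threshold, 17 lost it, 16 passed it, 6 moved by more than their error and 0 reversed a called direction. From early to late days 4 to 5 members were called in every alternative, among the days 5 to 6, and in the interaction and outside against inside 0. Between the lines 2 members were called with no filter on low counts, and 1 with no upper limits or with every barcode, against 0, and 0 to 1 with a library left out. By hypoxia-list UMIs 3 members were called with no filter and 3 on days 12 and 15 only (chosen after seeing the data), and 0 to 2 with a library left out, against 1. In the first 2 of these settings calls over all genes rose too, to 3966 on days 12 and 15. The rise from 1 to 3 members is therefore no result about the members. Calls over all genes under several alternatives are given below. By cycle-list UMIs 2 were called on days 6 and 9 only. In bulk, TET2CD against SW620-FLAG called 2 with no filter and 0 with no block, and SW480 against SW620 gave 5 members past the limit on TPM + 1 against 3, beside 13.5% of all genes towards SW480 and 9.16% towards SW620 on that scale. Of these 5, MT1F and MT1G had passed the filter only through the library where they were high. The cause of these changes was not tested.

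Over all genes, calls between the lines were 755, with 1489 under no filter, 46 without the block and 440 to 774 with a library left out. Calls by hypoxia-list UMIs were 485, with 835 at 4000 UMIs, 1381 under no filter, 3966 on late days, 165 on early days and 146 to 748 with a library left out. Calls by cycle-list UMIs were 3184, with 1863 in DESeq2 and 1136 on late days. The interaction gave 15 under no filter. Outside against inside gave 21 in DESeq2 and 472 under no filter. The bulk lines gave 73, with 709 in DESeq2, 178 with upper-quartile factors, 2239 under no filter and 8 without the block. No fit with a block by replicate number was possible because each group has 1 library, all with the same number, and the blocks used were line, day, location or library. Depth limits MT1M most, at 4 to 84 UMIs per library, and MT1F and MT1G next.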
